A study of Mus musculus with 24 samples.

Results

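The suppressors of cytokine signalling (SOCS) family, 8 of the 54446 genes in the count tables, was followed through CD11b+ myeloid cells of MC38 tumours. Its members were taken as a fixed list, namely Socs1 to Socs7 and Cish, and every member was found in the tables and passed the filter on low counts. MC38 is a mouse colon carcinoma line, grown here in C57BL/6J mice that were WT (Ythdf2 fl/fl without Cre) or cKO (Lyz-Cre+; Ythdf2 fl/fl, with Cre expressed in myeloid cells), so that controls also carried the floxed allele. Tumours were left untreated (Ctrl) or received 1 dose of 20 Gy (IR), with cells collected 3 days later and pooled from several mice per replicate. Polyadenylated RNA was sequenced as Input and after fragments carrying N6-methyladenosine (m6A) had been pulled down with an antibody (IP), the MeRIP-seq assay, which gave 24 libraries in 8 groups of 3.

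Cytokine receptors that lack a kinase of their own signal through Janus kinases (JAKs), which phosphorylate the receptor and the STAT transcription factors. SOCS genes are among the targets that STATs switch on, and their proteins then bind the receptor or the kinase through an SH2 domain and recruit a ubiquitin ligase through the SOCS box, closing a negative feedback loop. SOCS1 is known to restrain interferon signalling, SOCS3 signalling through the IL-6 and G-CSF receptors, SOCS2 growth hormone signalling and CISH signalling through STAT5. YTHDF2 binds m6A-modified mRNA and promotes its decay.

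The libraries held 65.2 to 83.7 M gene counts in Input and 68.85 to 86.42 M in IP. Ythdf2 was not lower in the Inputs labelled cKO. It was at 95.7 to 104 CPM in the WT Inputs (counts scaled to the library's total over genes) and at 175 to 234 CPM in the cKO Inputs. Among the IP libraries without irradiation it was at 219 to 228 CPM in WT Ctrl and at 196 to 215 CPM in cKO Ctrl. Lyz2, the gene that carries Cre, was at 19670 to 20890 CPM in the WT Inputs and at 299 to 420 CPM in the cKO Inputs, but among the IR IP libraries it was low in those labelled WT (95.3 to 98.3 CPM) and high in those labelled cKO (20640 to 20920 CPM). The IR IP libraries are therefore named by their labels, and the main comparisons of IP to Input that use them were averaged over both labels. Ratios given for a single IR label set IP against the Input of the same label, whose Lyz2 level did not match. The WT IR Inputs stood apart in spread between replicates, and also held erythroid transcripts (summed level of 6 genes 27.4 to 29.9 CPM, at most 0.0669 CPM in other Inputs). Myeloid markers were present in every library. NK cell markers summed to at most 0.239 CPM in Input, and T cell markers to 1.425 to 2.809 CPM. Tumour epithelial markers summed to 5.57 to 8.05 CPM in Input and platelet markers to 197 to 373 CPM.

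Short stretches of 4 members are shown, taken from exons in which peaks recurred in 10 to 12 of the 12 IP libraries. Each holds GGAC, the letters in which m6A is most often found, in capitals, and each is the GGAC closest within the exon to the middle of the recurring peak summits. Coordinates are GRCm38.p6, and the sequence is that of the transcript.
Cish, coding exon 3, chr9:107300536-107300559, plus strand: gcttccggctGGACtctaactgct
Cish, 5′ UTR in exon 1, chr9:107296912-107296935, plus strand: gtgtgccccgGGACcctgaccttc
Socs2, coding exon 3, chr10:95412966-95412989, minus strand: gacgtcagctGGACcgactaacct
Socs2, 5′ UTR in exon 2, chr10:95415069-95415092, minus strand: ccaccatttcGGACaccctgcaca
Socs1, exon 2, chr16:10784899-10784922, minus strand: gcgcagccccGGACgctatggccc
Socs4, exon 2, chr14:47289818-47289841, plus strand: ccattgagttGGACttagatcatt
These letters lay 160 and 40 bases from the middle summit for Cish, 108 and 98 for Socs2, 80 for Socs1 and 272 for Socs4. The stretch of Socs1 lay in the 5′ UTR and its middle summit in the coding sequence. That of Socs4 lay in the coding sequence and its middle summit in the 5′ UTR. The capital letters mark no site by themselves, and most lay outside the 101 bases centred on the summit. Within such windows, GGAC was found at 8 of 33 summits in the WT Ctrl libraries for the members other than Socs6, whose chromosome was not read. It was found at 34.3% of all 50995 summits of those libraries on the chromosomes read. Over the 12 IP libraries it was found at 27 of 70 summits of Cish, 2 of 32 of Socs2 and 0 of 20 of Socs4. These windows were cut from the genome, not from spliced transcripts, so windows at summits near an exon start also held intron sequence. Many of the Cish summits lay in intron 1.

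The promoters of Cish and Socs3 are shown because STAT factors bind the palindrome TTCNNNGAA (N being any base, the same letters on both strands), here in capitals. RefSeq promoters (250 bases before to 50 bases after the start, GRCm38.p6) were at hand for Cish, Socs1, Socs3 and Socs4.
Cish, chr9:107296654-107296683, plus strand: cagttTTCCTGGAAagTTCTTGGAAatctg
Socs3, chr11:117969507-117969525, minus strand: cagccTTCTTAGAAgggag
Cish held 2 of these palindromes and Socs3 held 1, while the windows of Socs1 and Socs4 held none. Those of Cish began 0 and 11 bases from the RefSeq start, and that of Socs3 at -154. The whole Cish window also lay inside exon 1 (chr9:107296026-107297034) of the principal transcript used for the peaks, past the start of that transcript. Of 32851 promoters of the same length, 8.3% held at least 1 and 0.457% held at least 2.

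In Input, Socs3 had the highest level of the family per length of merged exons. In WT Ctrl it stood at 26.2 ± 0.565 CPM per kb of merged exons (SD, n = 3), ahead of Socs4 (5.89 ± 0.0813), Socs2 (5.63 ± 0.204), Socs7 (4.26 ± 0.309) and Socs5 (3.82 ± 0.240). Socs1 (2.75 ± 0.105) and Socs6 (2.65 ± 0.0351) followed with overlapping values, and Cish was lowest at 0.580 ± 0.154 CPM per kb. The choice of length matters for Socs2, whose merged exons are 9531 bases long and whose principal transcript is 2222 bases. Per kb of the principal transcript Socs2 was at 24.2 CPM in WT Ctrl, next to Socs3 at 29.7 CPM. On that scale Socs2 was ahead of Socs3 in both irradiated groups, at 38.3 against 26.3 CPM in WT IR and at 38.7 against 36.1 CPM in cKO IR. Socs3 was first and Cish last in all 4 Input groups per kb of merged exons, and Socs2 was second in the other 3 groups.

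**Figure D1:**
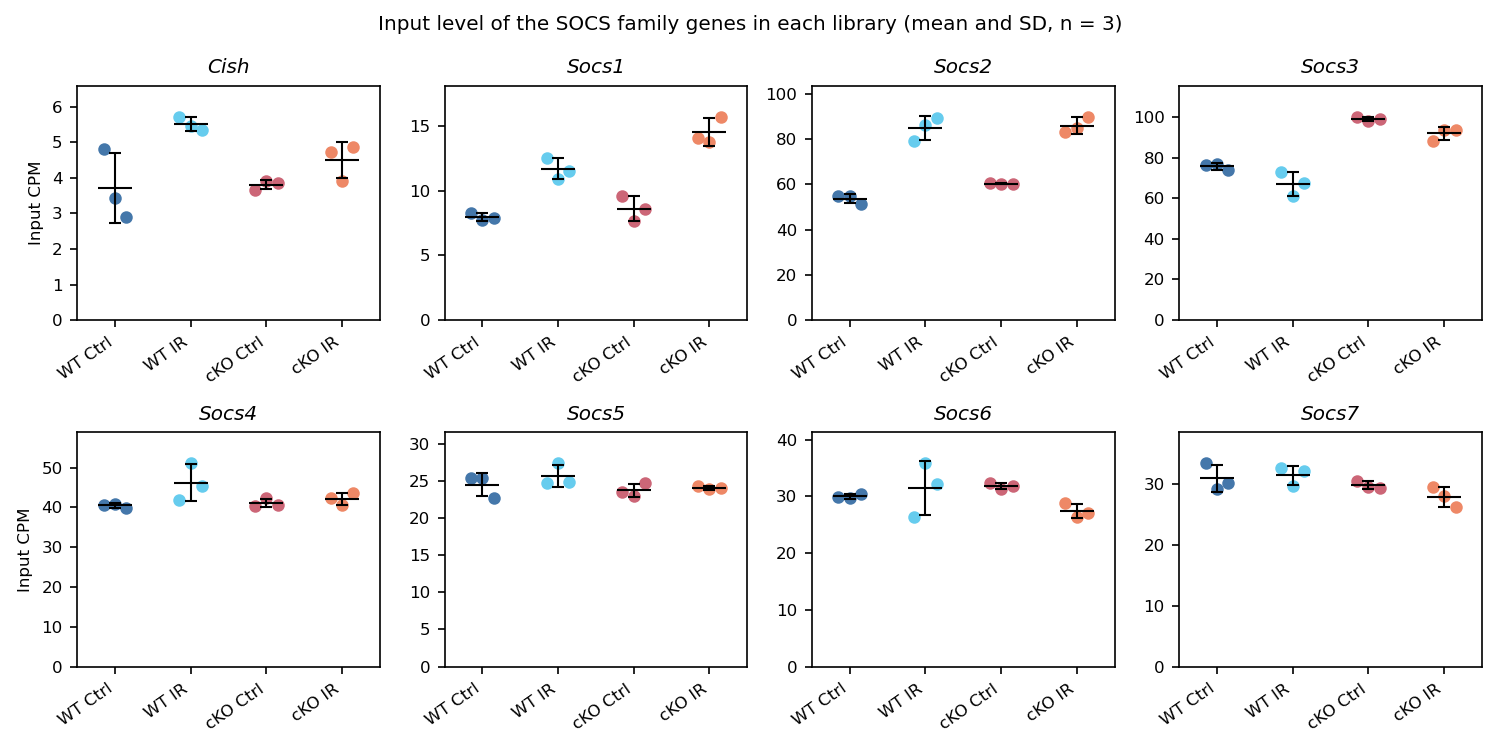
Input level (CPM, y axis from 0) of each family member in the 3 libraries of each group, with points for libraries and black bars for mean ± SD. Socs1 and Socs2 are higher in both IR groups than in both Ctrl groups, and Socs3 is higher in both cKO groups than in both WT groups.

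Irradiation of WT mice raised 4 of the 8 members and lowered 1. Of all 16090 genes tested in Input, 31.7% passed in this comparison (edgeR quasi-likelihood test, Benjamini-Hochberg adjusted p under 0.05), 14.7% higher and 17% lower. Socs2, the inhibitor of growth hormone signalling, was at 54.8, 54.8 and 51.4 CPM in the WT Ctrl libraries and at 79.3, 86.3 and 89.4 CPM in the WT IR libraries. It rose 1.62-fold (log2 0.69 ± 0.05, SE, adjusted p = 2.71e-10). Socs1, the inhibitor of interferon signalling, was at 8.31, 7.71 and 7.93 CPM against 12.6, 11.0 and 11.6 CPM, and rose by 0.58 ± 0.09 on the log2 scale (adjusted p = 2.55e-05). Cish was at 4.82, 3.45 and 2.90 CPM against 5.73, 5.46 and 5.36 CPM, a 1.51-fold rise (log2 0.60 ± 0.14, adjusted p = 0.00262). The groups did not overlap for any of these 3 genes, although Cish rested on 217 to 378 counts per Input library over all groups. The share of all genes without such overlap was not counted, here or in the comparisons below. Socs4 rose by 0.22 ± 0.06 on the log2 scale (adjusted p = 0.00499), or by 0.14 without WT IR replicate 2 (adjusted p = 0.0328). Socs3 fell by 0.14 ± 0.05 (adjusted p = 0.0336), a call lost without WT Ctrl replicate 1 or 2 or WT IR replicate 2 or 3 (adjusted p up to 0.187). Socs5 (log2 0.10 ± 0.06, adjusted p = 0.235), Socs6 (0.10 ± 0.07, adjusted p = 0.332) and Socs7 (0.06 ± 0.06, adjusted p = 0.536) did not pass, although Socs6 did without WT IR replicate 1 (0.21, adjusted p = 0.00282). Neutrophil markers moved in the same comparison, with all 9 lower and their summed level at 2603 to 2730 CPM in WT Ctrl against 663 to 706 CPM in WT IR, and granulocyte progenitor markers went from 62.4 to 68.0 CPM to at most 0.266 CPM. Dendritic cell markers moved the other way, with 3 of 4 tested higher and their summed level at 405 to 415 CPM in WT Ctrl against 620 to 639 CPM in WT IR. Most of that sum was Ccr7, at 360 to 677 CPM over the 12 Inputs. Xcr1, Clec9a, Cd209a and Siglech of the same list were at no more than 0.767 CPM each. The part of these cells in the members' changes was not tested, and in bulk RNA fewer cells of a type and less RNA per cell cannot be told apart.

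In cKO mice irradiation again raised Socs1 and Socs2, and 3 of the 8 members passed where 45.6% of all genes did. Socs1 was at 9.59, 7.67 and 8.56 CPM in cKO Ctrl and at 14.1, 13.8 and 15.8 CPM in cKO IR, a 1.67-fold rise without overlap (log2 0.74 ± 0.09, adjusted p = 4.93e-07). Socs2 was at 60.7, 60.2 and 60.2 CPM against 83.1, 85.0 and 90.1 CPM, a 1.41-fold rise (log2 0.50 ± 0.05, adjusted p = 1.87e-08). Socs6, which acts on receptor tyrosine kinases, was at 32.4, 31.3 and 31.9 CPM against 28.8, 26.4 and 27.1 CPM and fell by 0.23 ± 0.07 on the log2 scale (adjusted p = 0.017). That call was lost without cKO Ctrl replicate 1 or cKO IR replicate 2 or 3 (adjusted p up to 0.0729). Cish did not pass (log2 0.23 ± 0.14, adjusted p = 0.214), nor did Socs3 (log2 -0.12 ± 0.05, adjusted p = 0.0528). Socs3 did pass as lower in 4 other fits, with no filter (adjusted p = 0.0266), a filter at 50 counts (0.0356), DESeq2 (0.0476) and the 6 libraries of the comparison alone (0.00246). Of the neutrophil markers 8 of 9 were lower in cKO IR than in cKO Ctrl. Of the dendritic cell markers 2 of 4 tested were higher, with summed levels, again mostly Ccr7, of 461 to 467 CPM in cKO Ctrl and 703 to 737 CPM in cKO IR. The part of either list in these changes was not tested.

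A test of whether irradiation acted differently in the 2 genotypes called 2 members, beside 30.2% of all genes. The log2 change with irradiation was lower in cKO than in WT by 0.20 ± 0.06 for Socs2 (difference -0.20, adjusted p = 0.0242) and by 0.33 ± 0.11 for Socs6 (difference -0.33, adjusted p = 0.0222). Each of these calls was lost in 5 of the 12 fits that left out 1 library. Both were lost without WT IR replicate 3, cKO Ctrl replicate 1 or cKO IR replicate 2. That of Socs2 was also lost without WT Ctrl replicate 3 or cKO IR replicate 1, and that of Socs6 without WT IR replicate 2 or cKO IR replicate 3. For Cish the difference was -0.37 ± 0.20 (adjusted p = 0.184), so that its change in WT was not shown to differ from that in cKO. Without WT Ctrl replicate 1, in which Cish was highest of its group, the difference passed (-0.60, adjusted p = 0.0135). Socs4 had the same difference as Socs2 (-0.20) but did not pass (adjusted p = 0.0697). It passed without WT IR replicate 1 (-0.26, adjusted p = 0.0027) and under the filter at 50 counts (-0.21, adjusted p = 0.0455). For Socs1 the difference was 0.16 ± 0.12 (adjusted p = 0.367).

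**Figure D2:**
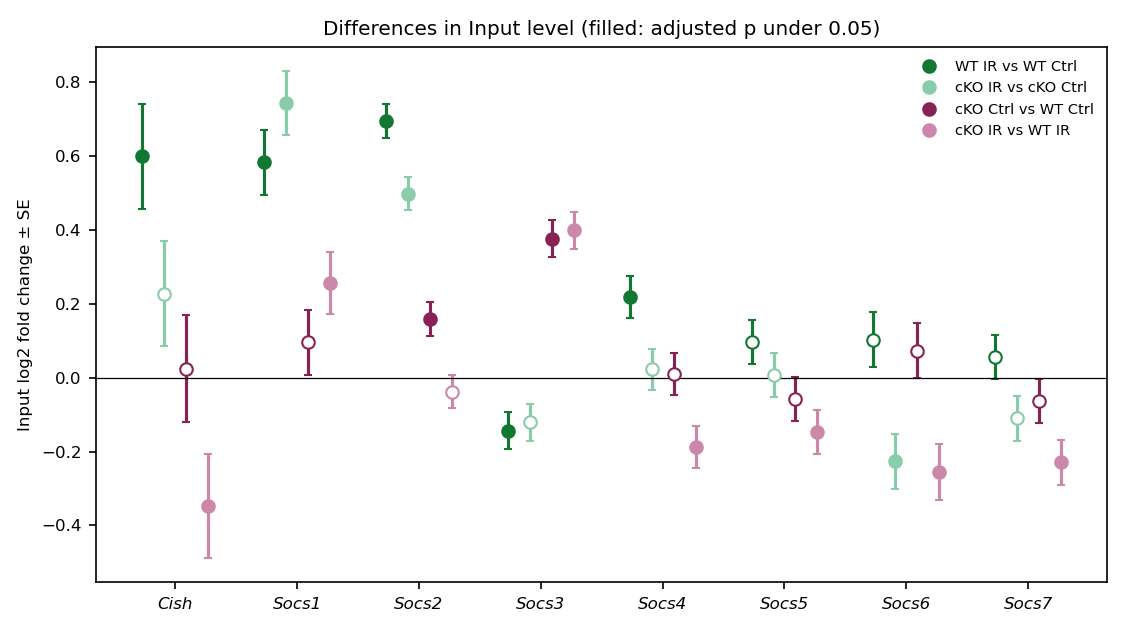
Log2 fold change in Input (y axis, ± SE) of each family member in 4 comparisons of groups of 3 libraries, with filled points for adjusted p under 0.05. Both irradiation comparisons are above 0 and filled for Socs1 and Socs2, and both genotype comparisons are above 0 and filled for Socs3.

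In the comparison of the genotypes without irradiation, the member with the lowest adjusted p was Socs3. Socs3, the inhibitor of IL-6 and G-CSF receptor signalling, was at 76.6, 77.0 and 74.0 CPM in WT Ctrl and at 100.4, 98.2 and 99.0 CPM in cKO Ctrl. It was 1.30-fold higher in cKO with no overlap (log2 0.38 ± 0.05, adjusted p = 1.53e-05). Socs2 was also higher (log2 0.16 ± 0.05, adjusted p = 0.0214), a call that was lost without WT Ctrl replicate 3 or any 1 of the cKO Ctrl replicates (adjusted p up to 0.119). Thus 2 of 8 members passed, where 15.7% of all genes did, and the other 6 had adjusted p from 0.55 to 0.942. Neutrophil markers summed to 1160 to 1189 CPM in cKO Ctrl, below WT Ctrl, and their part in the difference in Socs3 was not tested.

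After irradiation the genotypes differed in 7 of 8 members, in a comparison in which 47.7% of all genes passed. Socs3 was at 72.8, 61.2 and 67.4 CPM in WT IR and at 88.4, 94.0 and 93.9 CPM in cKO IR, again higher in cKO (log2 0.40 ± 0.05, adjusted p = 1.38e-06). Socs1 was higher as well (log2 0.26 ± 0.08, adjusted p = 0.0171). Lower in cKO were Cish (log2 -0.35 ± 0.14, adjusted p = 0.0484), Socs6 (-0.26 ± 0.07, adjusted p = 0.00786), Socs7 (-0.23 ± 0.06, adjusted p = 0.00387), Socs4 (-0.19 ± 0.06, adjusted p = 0.00939) and Socs5 (-0.15 ± 0.06, adjusted p = 0.046). Socs2 did not pass (log2 -0.04 ± 0.04, adjusted p = 0.515). None of the 6 fits that left out 1 library kept this count, and 2 to 6 members were called in them. Leaving out cKO IR replicate 2, or cKO IR replicate 3, left 4 members called. Without WT IR replicate 2, of the group that stood apart in spread, only Socs3 and Socs7 were called. Socs3 and Socs7 alone kept their call in each of the 6 fits, while that of Cish was lost in all 6 and that of Socs5 in 4. Between these groups 8 of 9 neutrophil markers were lower in cKO IR (summed level 572 to 577 CPM), all 5 erythroid genes tested were lower (at most 0.0285 CPM summed in cKO IR) and 7 of 12 myeloid markers were higher and 3 lower. The part of these cells in the members' differences was not tested. These comparisons share groups with the ones above and are not independent of them.

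The 98 other genes of the pathway were followed in 8 lists, whose counts stand beside 14.7% of all genes higher and 17% lower with irradiation in WT. There, 2 of 4 JAK genes rose and none fell, led by Jak2 (log2 0.55 ± 0.04, adjusted p = 4e-10). Among 7 STAT genes 2 rose, Stat4 (0.84 ± 0.04, adjusted p = 9e-12) and Stat3 (0.24 ± 0.03, adjusted p = 4.7e-06). Of 9 ligand genes tested 5 rose and 1 fell, with Lif, a cytokine of the IL-6 family, at 1.21 ± 0.12 (adjusted p = 1.6e-07). The receptors were mixed, 6 of 20 higher and 7 lower, and Csf3r, the G-CSF receptor and also one of the neutrophil markers, fell by 0.58 ± 0.04 (adjusted p = 2.5e-10). None of the 8 subunits of the SOCS box ubiquitin ligase passed in this comparison. The known STAT targets were also mixed, with 8 of 17 higher and 5 lower. Of the 6 adaptors tested that SOCS ligases act on, 4 rose and 1 fell, and of 13 other inhibitors of the pathway 3 rose and 2 fell. Irradiation in cKO gave other counts, in a comparison in which 45.6% of all genes passed. There 1 of 4 JAK genes rose and 3 fell, and among 20 receptors 4 rose and 13 fell. Of 8 ligase subunits 6 rose and none fell, and of 9 ligands 5 rose and none fell. STAT genes went 1 higher and 2 lower of 7, and STAT targets 6 and 4 of 17. Adaptors went 2 higher and 3 lower of 6, and other inhibitors 3 and 6 of 13.

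Between genotypes the same lists moved as follows. In cKO Ctrl against WT Ctrl, where 15.7% of all genes passed in either direction, 9 of 20 receptors, 7 of 17 STAT targets and 3 of 9 ligands were higher and none of their genes was lower. The JAK genes (2 of 4 higher), the other inhibitors (2 of 13 higher) and the ligase subunits (1 of 8 higher) had no lower gene either, and 1 of 6 adaptors was lower, Irs2 (-0.24 ± 0.05, adjusted p = 0.0029). Il6, a ligand whose receptor SOCS3 restrains, was among the higher ligands (0.74 ± 0.10, adjusted p = 3.1e-05). Stat2, a STAT of type I interferon signalling, was higher as well (0.58 ± 0.05, adjusted p = 2.1e-08). In cKO IR against WT IR, where 47.7% of all genes passed in either direction, all 4 JAK genes and 4 of 6 adaptors were lower and 7 of 8 ligase subunits were higher. The other lists were mixed, with 7 higher and 1 lower among 9 ligands, 5 and 6 among 20 receptors, 2 and 4 among 7 STAT genes, 7 and 3 among 17 STAT targets, and 3 and 5 among 13 other inhibitors. Eloc, which encodes the elongin C that the SOCS box binds, was higher by 0.55 ± 0.06 (adjusted p = 6.3e-07).

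Over the 12 Inputs the members did not follow 1 pattern. Socs1 and Socs2 had a Pearson r of 0.907 (log2 CPM, n = 12 libraries, which share groups), while Socs3 had r of 0.0297 with Socs1 and -0.174 with Socs2. The genes most like Socs2 among 11662 were Bhlhe40 (r = 0.985), Cdkn1a (0.984) and Ccl22 (0.982). Those most like Socs1 were Cytip (0.974), Phlda3 (0.973) and Bcl2l14 (0.973), and those most like Socs3 included Tor4a (0.990) and Cfp (0.987).

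Cish, the member with the fewest Input reads, had the most IP reads of the family in WT Ctrl. There it had 4.82, 3.45 and 2.90 CPM in Input and 292, 289 and 293 CPM in IP. In cKO Ctrl and in the libraries labelled WT IR its IP level overlapped that of Socs6, and in those labelled cKO IR it was below it (284 to 286 against 306 to 309 CPM). Over all groups Cish made up 1.12 to 1.94% of the members' counts in the 12 Inputs and 26.1 to 29.2% in the 12 IP libraries. IP over Input was 67.6-fold in WT Ctrl (log2 6.08 ± 0.08, adjusted p = 1.96e-35), rank 72 of 17373 genes. In all, 7 of 8 members passed in this comparison, but so did 75.5% of all genes. Of all 17373 genes, 2 including Cish itself had both an Input level and a ratio at least as high as those of Cish.

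Socs6, Socs1 and Socs2 formed the next tier in WT Ctrl. Socs6 was at 29.8, 29.7 and 30.5 CPM in Input and at 265, 275 and 273 CPM in IP, a 7.77-fold ratio (log2 2.96 ± 0.06). Socs1 had a 4.05-fold ratio (2.02 ± 0.07) and Socs2 a 3.55-fold ratio (1.83 ± 0.04). Socs5 and Socs4 were near the middle of all genes at 0.17 ± 0.05 and 0.17 ± 0.06, Socs3 did not pass (-0.07 ± 0.05, adjusted p = 0.165), and Socs7 was 1.69-fold lower in IP (-0.76 ± 0.06). Socs5 lost its call without WT Ctrl Input replicate 3 (adjusted p = 0.067) and Socs4 without WT Ctrl IP replicate 3 (adjusted p = 0.0627), with RLE size factors (0.0894) and with DESeq2 (0.0929). Socs3 passed as lower in 4 other fits, with RLE size factors (-0.13, adjusted p = 0.0129), a filter at 50 counts (0.0351), DESeq2 (0.0106) and without the IR libraries (0.0157). The family thus ranged over the scale of all genes rather than sharing 1 ratio. In cKO Ctrl all 8 members passed, beside 73.7% of all genes, with Cish at 5.77 ± 0.07 and Socs6 at 2.67 ± 0.06. The call of Socs5 was lost there without cKO Ctrl IP replicate 1 (adjusted p = 0.0724). In the IR libraries, averaged over labels, all 8 passed beside 80.3% of all genes, with Cish at 5.51 ± 0.05 and again ahead of Socs6.

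**Figure D3:**
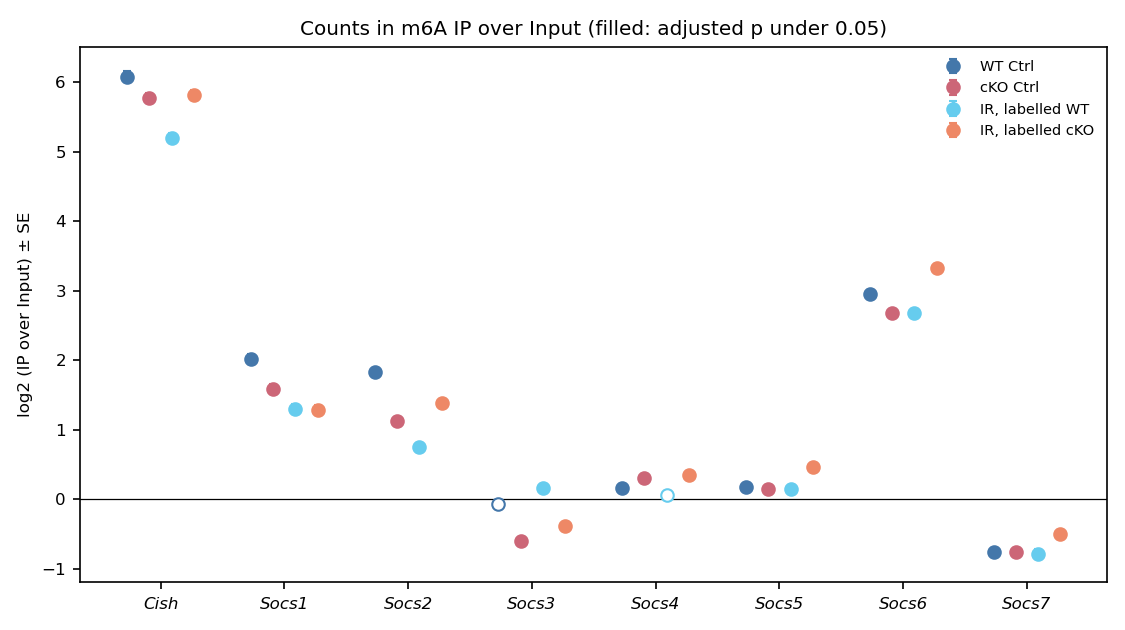
Log2 ratio of m6A IP to Input (y axis, ± SE, groups of 3 libraries each) for each family member in 4 labelled groups, with filled points for adjusted p under 0.05. Cish lies between 5.20 and 6.08 in every group, while Socs7 lies below 0 in every group. The IR groups set IP against the Input of the same label, although Lyz2 goes against the labels of these IP libraries.

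**Figure D4:**
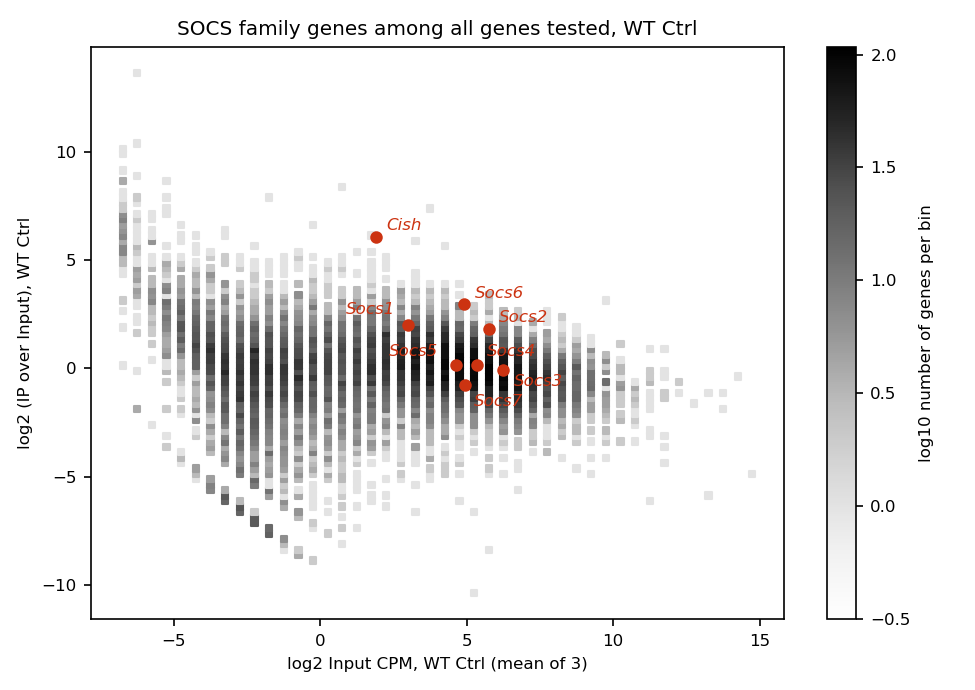
Log2 Input CPM in WT Ctrl (x axis) against the log2 ratio of IP to Input (y axis) for all 17373 genes tested, in grey bins shaded by number of genes, with the 8 family members in red. Cish sits at the upper edge of the cloud at its Input level, and Socs3, Socs4, Socs5 and Socs7 lie in its body.

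Without irradiation the ratio was lower in cKO than in WT for 5 of 8 members, where 22.6% of all genes differed (12.5% lower). Socs2 was at 227, 225 and 211 CPM in the WT Ctrl IP libraries and at 156, 159 and 159 CPM in the cKO Ctrl IP libraries, while its Input was slightly higher in cKO. Its ratio was lower by 0.70 on the log2 scale (difference -0.70 ± 0.05, adjusted p = 4.82e-12). For Socs3 the difference was -0.54 ± 0.07 (adjusted p = 7.28e-08). Its IP was at 80.4, 85.4 and 85.6 CPM in WT Ctrl and 72.7, 80.3 and 80.0 CPM in cKO Ctrl. Mean Input of Socs3 was 75.8 CPM in WT Ctrl and 99.2 CPM in cKO Ctrl, a larger shift than that in IP. Socs1 (-0.43 ± 0.10, adjusted p = 0.00156) and Socs6 (-0.29 ± 0.08, adjusted p = 0.00505) followed. Cish passed narrowly (-0.31 ± 0.12, adjusted p = 0.0499). That call was lost with DESeq2 (adjusted p = 0.0868) and in 10 of 12 fits that left out 1 library, all but those without WT Ctrl Input replicate 1 or cKO Ctrl IP replicate 3 (adjusted p up to 0.31). The difference for Cish went from -0.53 without WT Ctrl Input replicate 1 to -0.16 without WT Ctrl Input replicate 3. Socs4, Socs5 and Socs7 did not pass (adjusted p from 0.232 to 0.995).

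Averaged over the labels, the ratio differed between IR and Ctrl for 6 of 8 members, beside 48.4% of all genes. It was lower with IR for Socs1 (-0.51 ± 0.07, adjusted p = 2.16e-07), Cish (-0.41 ± 0.08, adjusted p = 4.14e-05) and Socs2 (-0.41 ± 0.04, adjusted p = 5.35e-11). It was higher for Socs3 (0.23 ± 0.05, adjusted p = 9.53e-05), Socs6 (0.19 ± 0.05, adjusted p = 0.00425) and Socs5 (0.14 ± 0.05, adjusted p = 0.0216). A lower ratio was not by itself a lower IP level. Mean IP of Socs1 was 37.5 CPM in WT Ctrl and 30.7 CPM in cKO Ctrl. Under the WT IR and cKO IR labels it was 34.2 and 39.6 CPM. Mean Input of Socs1 was 7.98 and 8.61 CPM in WT Ctrl and cKO Ctrl, against 11.7 and 14.5 CPM in WT IR and cKO IR. For Cish, mean IP was 292 and 249 CPM in WT Ctrl and cKO Ctrl, against 241 and 285 CPM under the IR labels. Socs7 did not pass (0.11, adjusted p = 0.133) but did without WT Ctrl IP replicate 3 (0.15, adjusted p = 0.0391). Taken label by label, several of these turned over. Socs2 IP was at 169, 169 and 172 CPM in the libraries labelled WT IR and at 256, 250 and 250 CPM in those labelled cKO IR, which gave -1.08 for the WT label and 0.26 for the cKO label. Socs6 gave -0.28 and 0.65, and Cish -0.88 and 0.05. Because Lyz2 goes against the labels of these IP libraries, no direction by genotype was drawn from them.

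The authors' peaks, called in each IP library, recurred on the members with the highest ratios. A peak on the gene's strand in 3 of 3 libraries was found for 5 of 8 members in each of the 4 groups, against 27.7% of 17367 genes in WT Ctrl and 25.8% in cKO Ctrl. For IR these shares were 23.4% under the WT label and 20.8% under the cKO label. Cish, Socs1, Socs2 and Socs6 were among them in every group. Socs4 was the fifth member in 3 groups and Socs3 in the libraries labelled WT IR. Socs7 had no peak in any of the 12 libraries, and Socs5 had one in 6.

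Cish had the strongest peak of the family. Its main region, chr9:107299737-107301954, ran over exons 2 and 3 in 12 of 12 libraries, with an enrichment over the control of 42.1 to 47.1-fold in WT Ctrl and 26.8 to 41.5-fold in cKO Ctrl. Its best peak ranked 3 to 10 among the 13470 to 17608 peaks of its library. Peaks covered a median of 94.3% of its coding sequence. In all 12 libraries smaller peaks also lay in the 5′ UTR of exon 1 (chr9:107296793-107296998) and in intron 1 (chr9:107298585-107299687), much of which another annotated isoform keeps.

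In Socs2 peaks recurred over the 5′ part of exon 2 (chr10:95414878-95415313) and over exon 3 (chr10:95411642-95413233), each in 12 of 12 libraries and at 2.11 to 4.89-fold. In Socs1 a single region over exon 2 (chr16:10783862-10785066) reached 3.12 to 10.5-fold and covered a median of 100% of the coding sequence. In Socs4 the region at the start of exon 2 (chr14:47289420-47290544) was called in 11 libraries. The middle summit lay 21 bases into exon 3 of Cish, 25 bases into exon 3 of Socs2, 13 bases into its exon 2 and 42 bases into exon 2 of Socs4. Reads were also called as peaks on the opposite strand, for Cish in 11 libraries (4.54 to 7.81-fold) and for Socs6 in 12 libraries (4.92 to 7.51-fold). Cish overlaps the antisense genes Gm17040 (2.63 to 4.89 CPM in IP) and Gm17041 (1.23 to 2.91 CPM in IP), far below its own IP level.

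**Figure D5:**
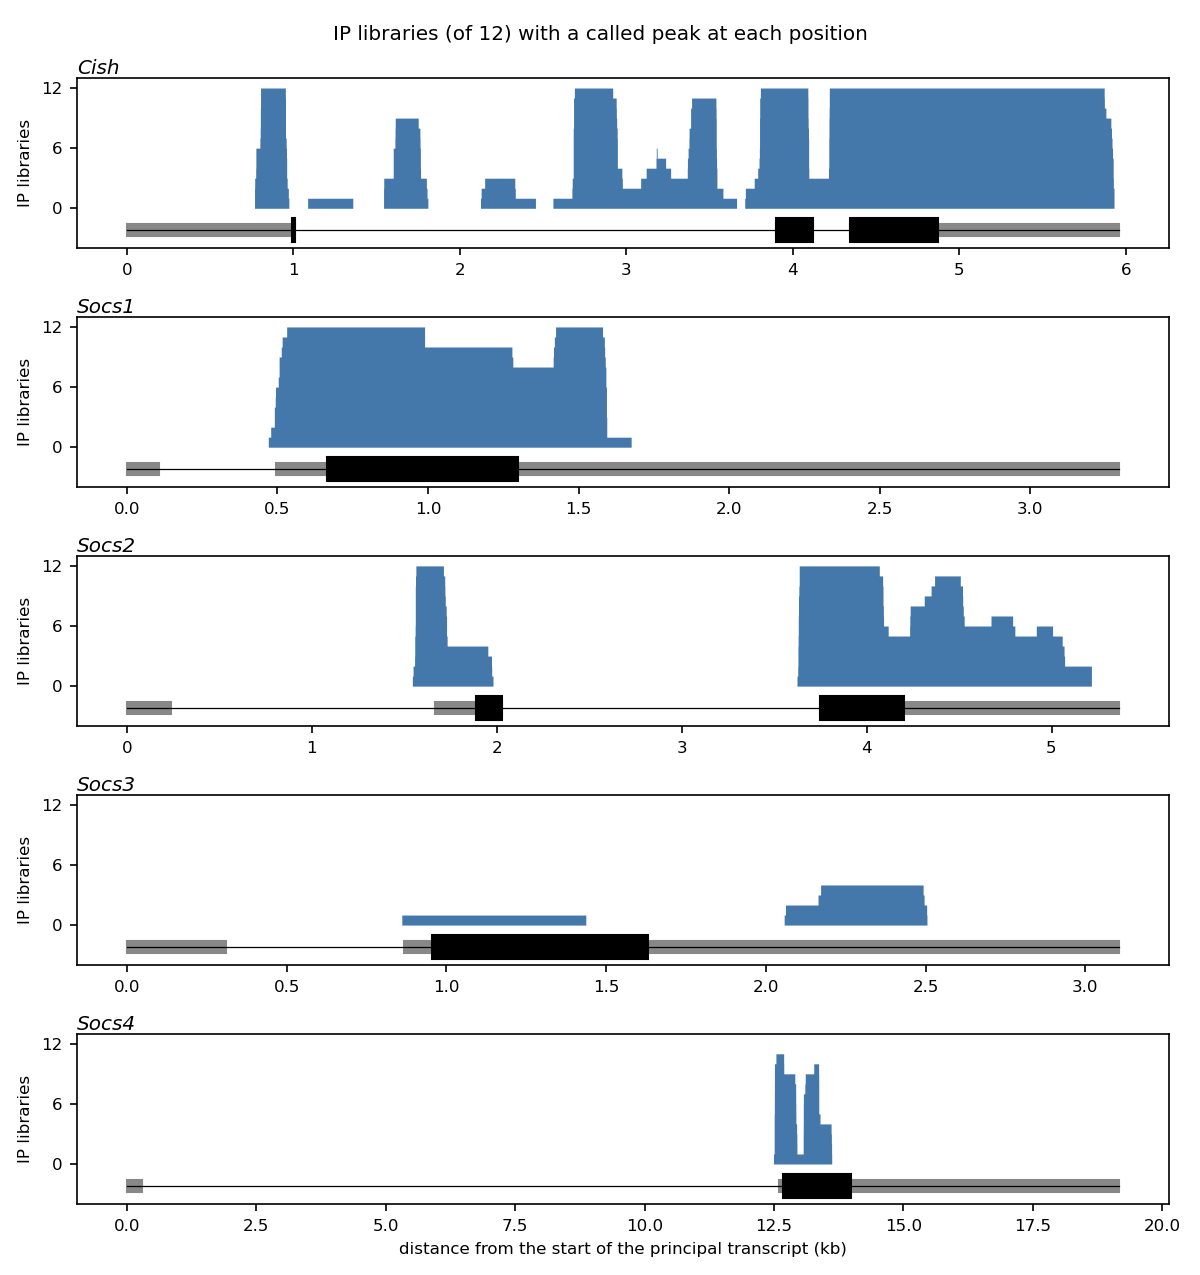
Number of the 12 IP libraries with a called peak (y axis) along the principal transcripts of 5 family members (x axis, distance from the start in kb), above the exons (black for coding, grey for UTR). Coverage reaches 12 over exon 3 of Cish and over part of the coding sequence of Socs1 and of exon 3 of Socs2, and Socs3 is covered in few libraries.

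GGAC did not follow the ratio across the family. Per kb of the longest coding transcript it occurred 6.75 times in Socs2, 5.16 in Socs1, 5.09 in Socs3 and 4.91 in Cish. It occurred 4.42 times in Socs7, 4.30 in Socs5, 1.82 in Socs6 and 1.60 in Socs4. The median over 21405 genes was 3.94. Socs3, with a ratio near 1, thus had slightly more of these letters per length than Cish.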

How the data were processed

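According to the study's methods and the labels, the authors used Trimmomatic 0.39 for trimming, HISAT for alignment to mm10 with strand-specific settings, HTSeq for counting reads per gene and MACS2 for peaks called per IP library and strand. The HTSeq strand setting and the Input used as peak control are not given in the sources used here. The deposited counts are raw counts per library, neither normalized nor pooled. The deposited peak lists give fold enrichment (a ratio over control), −log10 p-values, −log10 q-values and a score per peak, as the authors' peak caller wrote them, and only fold and −log10 q were used.

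Genes that reached 10 counts in 3 or more libraries were tested with edgeR 4.0.16 in R 4.3.3 (TMM, quasi-likelihood), with 12 Inputs in 1 fit (16090 genes) and 24 libraries in another for IP over Input (17373 genes). Adjusted p-values are Benjamini-Hochberg over all genes tested, and calls are at 0.05. A log2 fold change is given with its SE, derived from the quasi-likelihood F statistic. CPM were taken over gene counts. HTSeq summary lines were left out, with reads outside genes at 2.97 to 6.80% of the total. Scripts were tested on simulated data. Peaks were assigned to genes by strand and an overlap of at least 1 base with GENCODE annotation of GRCm38.p6. Sequences and motifs at summits were read on the assembled chromosomes other than 18, which leaves out Socs6, while motif densities were counted in GENCODE transcripts of all members. Alternatives were RLE size factors, 2 other filters, DESeq2 1.42.0, the libraries of a contrast alone, each replicate left out and a replicate block.

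All 8 members were named in every comparison. From each pathway list at most 3 called genes with the largest change and at least 1 CPM could be named. The members and lists were chosen with earlier results of these data known. Replicates are called technical in 1 place of the methods and biological in another, so p-values measure the spread between libraries, which may be technical. Same-numbered libraries did not deviate together (r from -0.117 to 0.057 over 36 pairs). Some genes that these rules would name are not reported here.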

Additional observations from a re-analysis of the deposited data

Results flagged for a closer look

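Differences between groups in the effect of irradiation or of the antibody passed their own test for several members. Such differences were common among all genes as well, passing for 30.2% of them in the Input test. For the ratio of IP to Input they passed for 22.6% between the Ctrl genotypes and for 48.4% between IR and Ctrl. In Input, the log2 change with irradiation in cKO minus that in WT was -0.20 for Socs2 and -0.33 for Socs6. Each of these 2 calls was lost in 5 of the 12 fits that left out 1 library. For the ratio of IP to Input, cKO Ctrl minus WT Ctrl was -0.43 for Socs1, -0.70 for Socs2, -0.54 for Socs3, -0.29 for Socs6 and -0.31 for Cish, which ranged from -0.53 to -0.16 when 1 library was left out and lost its call in 10 of those 12 fits. For the same ratio, IR minus Ctrl averaged over the labels was -0.51 for Socs1, -0.41 for Socs2, -0.41 for Cish, 0.23 for Socs3, 0.14 for Socs5 and 0.19 for Socs6. Groups of 3 are too small for a check of single outlying libraries.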

How the results depend on the processing

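A change of sign between 2 fits without a call was not counted, as for Cish in cKO Ctrl against WT Ctrl (log2 -0.127 to 0.25). Of 1256 refits of single members, 1175 were counted as unchanged on this rule, 62 lost the call, 14 gained it and 5 turned over. Those 5 used the libraries of 1 label only: WT gave 0.16 for the Socs3 ratio in IR and, for IR minus Ctrl, -0.0277 for Socs5 and -0.28 for Socs6, and cKO gave 0.26 for Socs2 and 0.0491 for Cish. The labels of these IP libraries are doubted. Requiring at least 4-fold peaks left 3 members with a peak in WT Ctrl and cKO Ctrl and 2 in each group labelled IR. Leaving out single replicates gave 4 to 6 members for IR in WT, 1 to 2 for cKO Ctrl against WT Ctrl, 2 to 6 for cKO IR against WT IR, 2 to 3 for IR in cKO and 0 to 3 for the difference of the irradiation effects (0 without cKO Ctrl replicate 1, cKO IR replicate 2 or WT IR replicate 3). For IP over Input it gave 6 to 7 in WT Ctrl, 7 to 8 in cKO Ctrl, 8 in IR, 4 to 5 for cKO against WT and 6 to 7 for IR against Ctrl, and 5 to 6 members with a peak. Without the IR libraries, an alternative chosen after seeing the data, 8, 8 and 5 members passed in the 3 Ctrl comparisons of IP. For cKO Ctrl against WT Ctrl, 2520 genes were called in the fit of 12 Inputs and 3870 in the fit of 6. A replicate block called 5 members for IR in WT (4883 genes against 5100) and ended the Cish call for cKO against WT (adjusted p = 0.0608, edgeR). The Socs3 decrease in WT IR was lost in 5 alternatives (adjusted p up to 0.187), and Socs5 in cKO IR against WT IR under no filter (adjusted p = 0.118). With 217 to 378 counts per Input library, the depth of Cish limits its ratio.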
